A study of Mus musculus with 57 samples.

Results

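Gene expression in the ventral midbrain (VMB) was compared with that in the prefrontal cortex (PFC) of mice that had drunk ethanol. All 19 VMB arrays and all 19 PFC arrays entered the comparison, 38 of the 57 arrays of the series, and the remaining 19 came from the nucleus accumbens (NAc). The animals were male C57Bl/6NCrl mice, an inbred strain, bought as young animals according to the methods. Every mouse had been offered 10% ethanol beside water in 16 sessions of 18 hours. The sessions came in blocks of consecutive days, with days of abstinence between blocks, and the tissue was taken 6 days after the last session. No animal of either region was free of ethanol, so the comparison is between regions of ethanol-exposed brains. The array titles name the midbrain tissue as the ventral tegmental area, while the methods call it the ventral midbrain region. By the methods each array held RNA of 1 region of 1 mouse. The titles give replicate numbers and no animal. A number shared by both regions was taken as 1 mouse, which gave 18 mice with both arrays, and deviations of same-numbered arrays correlated only weakly (median 0.0451).

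The ventral midbrain contains the dopamine neurons of the ventral tegmental area and substantia nigra, which project to the striatum, accumbens and cortex. They lie among GABA and glutamate neurons and are crossed by myelinated tracts. The prefrontal cortex is a layered sheet of glutamatergic pyramidal neurons with several classes of GABA interneurons. Both regions belong to the circuit through which dopamine acts on motivation and drug intake. Each array measured a piece of tissue, so fewer cells of a type and less RNA per cell cannot be told apart in any value below.

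Levels are log2 signals of the Affymetrix arrays, put on a common distribution over the 38 arrays. Arrays of 1 region correlated at 0.976 or more in VMB and 0.985 or more in PFC, and VMB arrays correlated with PFC arrays at 0.922 to 0.946. The median SD between arrays of a region was 0.17 in VMB and 0.13 in PFC. A probeset was called when limma's test of a difference of more than 1 on the log2 scale gave an adjusted p under 0.01. Of 19815 probesets tested, 589 were higher in VMB (2.97%) and 688 higher in PFC (3.47%). With 1 probeset for each of 11342 genes, 396 genes were higher in VMB (3.49%) and 392 higher in PFC (3.46%). The median difference over all genes was 0.04. These percentages are the background for every count of genes below.

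The regions separated widely. All VMB arrays lay above all PFC arrays for 2473 probesets (12.5%), and all PFC arrays lay above all VMB arrays for 2269 probesets (11.5%). Of the 1277 called probesets, 1259 had no overlap between the groups, and 1273 differed in the same direction in all 18 mice with both arrays. These probesets were called for their large difference, so both counts follow largely from that choice. A difference of at least 2 on the log2 scale was seen for 131 of the genes called higher in VMB and for 117 of those called higher in PFC. In the values as deposited, the VMB arrays were shifted upward by a median of 0.18. There 790 probesets were higher in VMB and 563 higher in PFC, a share of 58.4% higher in VMB against 46.1% after joint normalization.

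**Figure D1:**
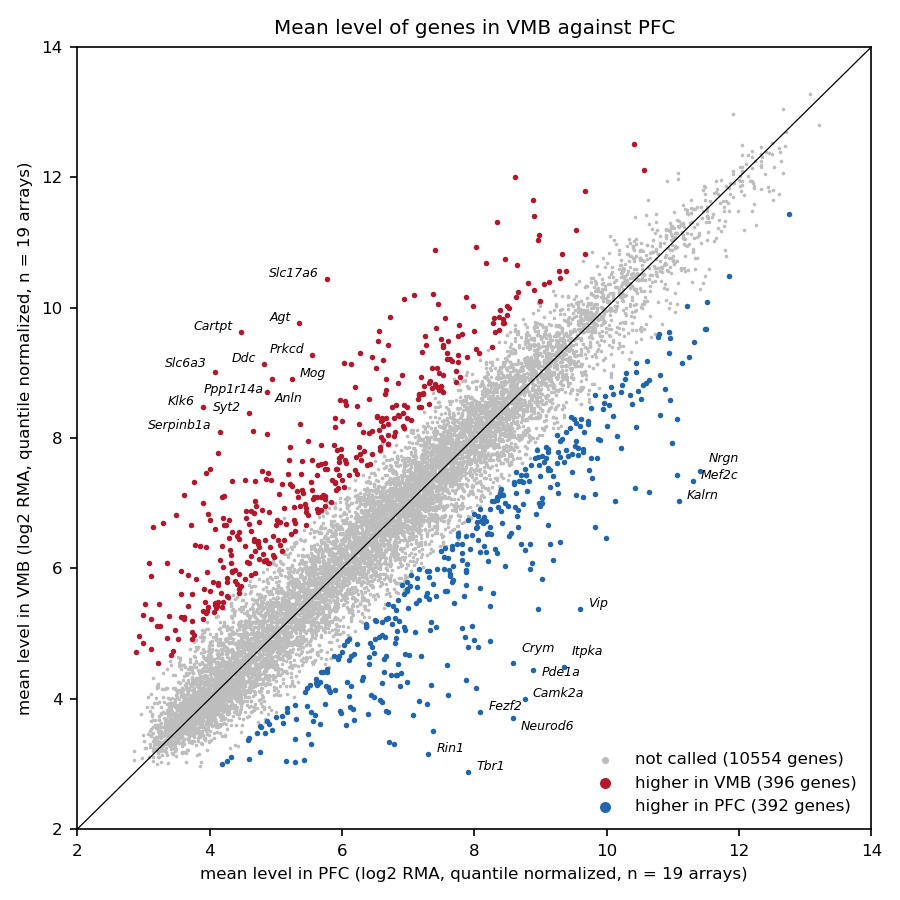
Mean level of each of 11342 genes in PFC (horizontal axis) and VMB (vertical axis), log2 scale, 19 arrays a region. Red points are the 396 genes called higher in VMB and blue points the 392 called higher in PFC, and the names mark the 12 genes with the largest difference in each direction.

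The labels of the regions were first checked against their defining genes. Slc6a3, the dopamine transporter, ranged from 8.63 to 9.34 with a median of 9.0 in VMB and from 3.84 to 4.37 with a median of 4.07 in PFC. Slc17a6, the vesicular glutamate transporter of subcortical neurons, ranged from 10.03 to 10.62 (median 10.46) in VMB and from 4.96 to 6.25 (median 5.82) in PFC. Tbr1, a transcription factor of deep-layer cortical glutamate neurons, ranged from 2.73 to 3.27 (median 2.88) in VMB and from 7.57 to 8.25 (median 7.89) in PFC. None of these genes overlapped between regions. The differences, VMB minus PFC, were 4.93 ± 0.06 (SE) for Slc6a3, 4.67 ± 0.07 for Slc17a6 and -5.01 ± 0.06 for Tbr1, with limma adjusted p of 2.15e-40, 1.28e-35 and 2.78e-41. Slc17a6 was 25.5-fold higher in VMB on the linear scale. Slc6a3 in PFC and Tbr1 in VMB lay on every array under 4.5, the level that the methods set as a floor, so no fold is given for them or for other genes low in 1 region. One array titled PFC, that of mouse 20, carries the ventral tegmental area in its source field. Its Tbr1 level was 7.89 and its Slc6a3 level 4.16, both inside the range of the other 18 PFC arrays, and it was kept as PFC.

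The RefSeq windows around the start sites of Slc6a3, Tbr1 and the dopamine gene Ddc are given below. They hold 250 bases before the start and 50 after, on the gene's own strand in the build GRCm38.p6. Their part in the regional differences was not tested. The window of Slc6a3 lies at chr13:73536497-73536796 on the plus strand, that of Tbr1 at chr2:61804203-61804502 on the plus strand. Ddc, which encodes the decarboxylase that makes dopamine from its precursor, has 2 windows, of which the one at chr11:11898095-11898394 on the minus strand is shown because it holds a motif match and the other holds none. Capitals mark the only match in these windows to any of 3 motifs searched on both strands: AAAGGTCA, bound by Nr4a2, TAATCC, bound by Pitx and Otx factors, and CAGATG, bound by basic helix-loop-helix factors.
Slc6a3: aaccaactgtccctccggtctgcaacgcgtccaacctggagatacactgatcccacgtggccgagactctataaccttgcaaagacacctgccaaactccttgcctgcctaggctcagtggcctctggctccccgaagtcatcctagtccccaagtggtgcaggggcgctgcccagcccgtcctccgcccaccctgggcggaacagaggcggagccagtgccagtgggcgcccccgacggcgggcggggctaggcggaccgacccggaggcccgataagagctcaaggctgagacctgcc
Ddc: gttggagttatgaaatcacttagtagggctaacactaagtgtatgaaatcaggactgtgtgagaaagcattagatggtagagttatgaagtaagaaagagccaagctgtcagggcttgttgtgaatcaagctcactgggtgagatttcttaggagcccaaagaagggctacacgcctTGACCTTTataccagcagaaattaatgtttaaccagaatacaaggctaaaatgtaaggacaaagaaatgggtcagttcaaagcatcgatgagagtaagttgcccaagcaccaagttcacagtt
Tbr1: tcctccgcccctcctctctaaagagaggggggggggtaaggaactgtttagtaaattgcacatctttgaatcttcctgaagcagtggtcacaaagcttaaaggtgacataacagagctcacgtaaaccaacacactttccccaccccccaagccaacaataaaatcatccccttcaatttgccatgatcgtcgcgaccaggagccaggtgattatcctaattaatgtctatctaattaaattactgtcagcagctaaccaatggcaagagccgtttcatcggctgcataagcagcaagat
The match in Ddc is AAAGGTCA read on the opposite strand and begins at base 178 of the window, upstream of that start site. Which of the 2 start sites of Ddc is used in either region was not tested. Neither Slc6a3 nor Tbr1 has a match in its window. Over genes with a single window, AAAGGTCA was found in 1 of 222 windows of genes higher in VMB (0.45%), 1 of 223 of genes higher in PFC (0.448%) and 74 of 7209 of all genes tested (1.03%). TAATCC was found in 5.86%, 3.59% and 5.56% of the same windows, and CAGATG in 14.9%, 14.3% and 11.7%. A match is a description of the letters and not of binding.

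Of 22 dopamine neuron genes tested, 13 were higher in VMB and none in PFC, with a median difference of 1.51. Th, tyrosine hydroxylase, the rate-limiting enzyme of dopamine synthesis, ranged from 7.65 to 8.41 (median 8.07) in VMB and from 4.44 to 4.83 (median 4.67) in PFC. Ddc ranged from 8.85 to 9.43 (median 9.10) in VMB and from 4.24 to 5.31 (median 4.81) in PFC. The lowest VMB array was above the highest PFC array for both enzymes, by several units. The differences were 3.45 ± 0.05 for Th and 4.32 ± 0.08 for Ddc, with limma adjusted p of 2.95e-34 and 1.11e-33. Aldh1a1, an aldehyde dehydrogenase of a subset of dopamine neurons, was 3.49 higher and Sncg, gamma-synuclein, 3.52 higher.

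Receptors and transcription factors of dopamine neurons were higher as well. Drd2, the D2 dopamine receptor that also serves as the autoreceptor of these cells, had a VMB median of 5.63 against 4.17, a difference of 1.44 ± 0.06. Chrna6, a nicotinic receptor subunit of dopamine neurons, was higher by 1.98, and Ret, the receptor component for glial cell line-derived neurotrophic factor, by 2.12. The transcription factors Foxa1, Otx2, En2 and Foxa2 were higher by 2.29, 2.04, 1.59 and 1.18. En2 lost its call when the 12 VMB arrays with Gabra6 above 4.5, described below, were left out (difference 1.20, limma adjusted p = 0.0577). Foxa2 lost its call after normalization of all 57 arrays (adjusted p = 0.0403) and with the mouse as a fixed term (adjusted p = 0.0186). The levels of these factors in PFC, with medians of 2.97, 2.94, 3.34 and 3.77, were under the floor.

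Not every dopamine gene was called. Pitx3, a homeobox factor of midbrain dopamine neurons, had medians of 4.52 in VMB and 4.68 in PFC and a difference of -0.09. Lmx1b had medians of 3.85 and 3.94 and Lmx1a of 3.94 and 3.75, under the floor in both regions. Nr4a2, a nuclear receptor these neurons need, was higher in VMB in all 18 mice without overlap, but by 0.72 ± 0.04, short of the minimum of 1. Its second probeset differed by 1.22 and was called (limma adjusted p = 0.00544). The vesicular monoamine transporter Slc18a2 was not analysed here.

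**Figure D2:**
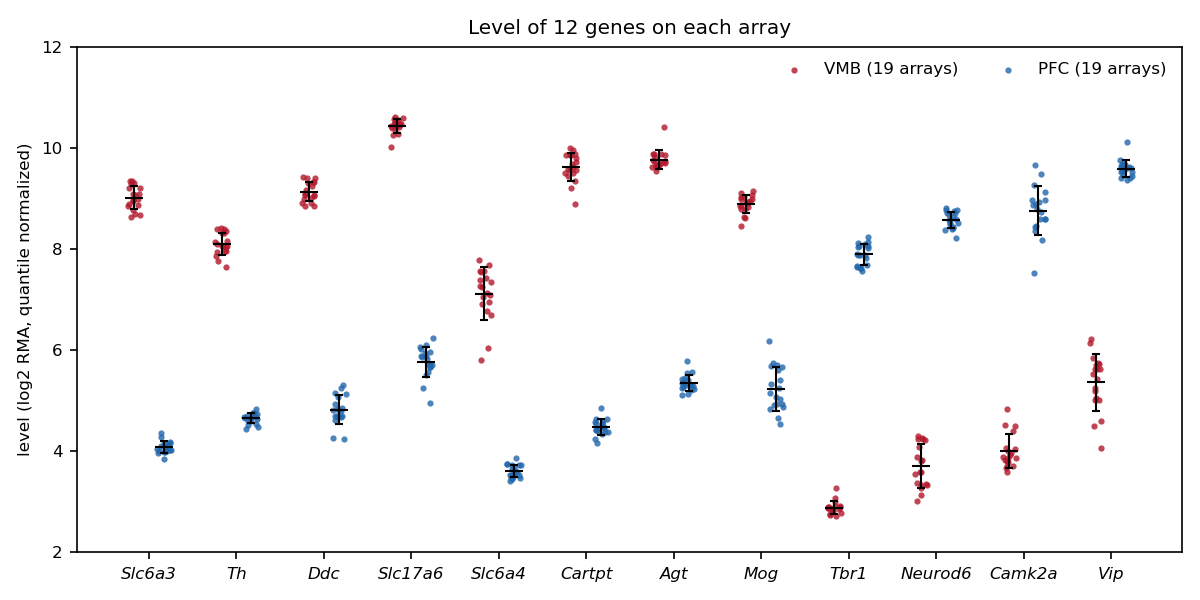
Level of 12 genes on each of 19 VMB arrays (red) and 19 PFC arrays (blue), log2 scale, with the mean and SD of each region in black. The regions do not overlap for any of the 12 genes, and Slc6a4 in VMB and Camk2a in PFC have the widest spread within the region where they are high.

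The other monoamine genes were mostly at low levels. Slc6a4, the serotonin transporter, ranged from 5.81 to 7.79 (median 7.25) in VMB and from 3.42 to 3.87 (median 3.60) in PFC, a difference of 3.52 ± 0.12 (limma adjusted p = 1.55e-22). It was the only 1 of 6 serotonin and noradrenaline genes called. Among the rest, Slc6a2, the noradrenaline transporter, had medians of 3.60 and 3.65, and Dbh, which makes noradrenaline, 4.88 and 4.67. The lowest Slc6a4 levels in VMB were 5.81 on the array of mouse 1 and 6.04 on that of mouse 19.

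Of 14 genes of midbrain glutamate, GABA and glycine neurons, 5 were higher in VMB and 1 higher in PFC, with a median difference of 0.89. The factors of GABA neuron fate Tal1 and Gata3 had VMB medians of 6.86 and 4.87 and PFC medians of 3.96 and 2.99. Their differences were 2.86 and 1.86, and Slc6a9, the glial glycine transporter, was higher by 1.41. Meis2, a homeobox factor, went the other way, with medians of 7.12 in VMB and 9.03 in PFC. The enzymes that make GABA differed less: Gad1 had medians of 10.76 and 10.43 and Gad2 7.05 and 6.27, and neither was called. Slc32a1, the vesicular GABA transporter, was 0.92 ± 0.05 higher in VMB in all 18 mice and was not called either.

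Transcription factors that pattern the embryonic brain were measured in the adult regions. Of 33 midbrain and hindbrain factors tested, 16 were higher in VMB and 1, Meis2, higher in PFC, with a median difference of 1.18. Ebf3, a helix-loop-helix factor, ranged from 6.05 to 6.89 (median 6.69) in VMB and from 2.96 to 3.34 (median 3.13) in PFC. Irx3, of the Iroquois homeobox family, had medians of 6.91 and 3.48, and its relatives Irx2, Irx1 and Irx5 were higher by 3.10, 2.53 and 1.90. The PFC levels of Ebf3 and Irx3 were under the floor on every array, so their differences of 3.50 and 3.33 are measured against signals near the lower end of the scale. Forebrain factors split differently, with 1 of 14 higher in VMB and 4 higher in PFC. Lhx2, a cortical selector gene, had medians of 4.76 in VMB and 8.04 in PFC, a difference of -3.25, and the interneuron factors Dlx1 and Lhx6 differed by -2.16 and -2.01. Zic1 was the forebrain factor on the VMB side, 2.32 higher.

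Markers of neighbouring nuclei were examined because a dissection of the ventral midbrain can border on them. Of 10 thalamus genes, 6 were higher in VMB, and the mean over the list ranged from 6.52 to 8.0 in VMB and from 5.28 to 5.58 in PFC. Prkcd, a protein kinase C that marks thalamic relay neurons, ranged from 7.69 to 10.62 (median 9.34) in VMB and from 5.32 to 5.74 (median 5.56) in PFC. Calb2, calretinin, which marks thalamic and midbrain cells as well as cortical interneurons, had medians of 10.20 and 7.12. No hypothalamus gene of 12 was called in either direction, and the list mean ranged from 4.83 to 5.23 in VMB and from 4.56 to 4.77 in PFC. Hcrt, the orexin gene of the lateral hypothalamus, had a VMB median of 5.25 with 7.76 on the highest array. Of 6 genes of midbrain cholinergic neurons and the adjoining Edinger-Westphal nucleus, Ucn, urocortin, and Ecel1, a membrane protease, were higher in VMB by 1.88 and 1.39. The part of these neighbours in the other differences was not tested.

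Neuropeptides divided the regions. Of 25 tested, 5 were higher in VMB and 6 in PFC. Cartpt, which encodes the cocaine- and amphetamine-regulated transcript peptides, had the largest difference of all genes called in VMB. It ranged from 8.90 to 10.00 (median 9.63) in VMB and from 4.16 to 4.85 (median 4.46) in PFC, a difference of 5.15 ± 0.07 (limma adjusted p = 3.53e-38). The regions were far apart for this peptide, with more than 4 log2 units between the nearest arrays. Nts, neurotensin, a peptide of midbrain dopamine circuits, was 2.95 higher in VMB. On the PFC side stood peptides of cortical interneurons. Vip ranged from 9.37 to 10.13 (median 9.60) in PFC and from 4.07 to 6.22 (median 5.53) in VMB, and Npy had medians of 10.00 and 6.43. Their differences were -4.23 ± 0.13 and -3.53 ± 0.06. Cck and Sst, which are also expressed in the midbrain, were higher in PFC by smaller margins, -2.38 and -1.51, and had VMB medians of 8.53 and 8.69.

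Of 15 cortical excitatory neuron genes tested, 12 were higher in PFC and none in VMB, with a median difference of -3.19. Neurod6, a helix-loop-helix factor of pyramidal neurons, ranged from 8.22 to 8.82 (median 8.58) in PFC and from 3.01 to 4.31 (median 3.59) in VMB. Fezf2, which specifies subcortically projecting layer 5 neurons, ranged from 7.84 to 8.33 (median 8.10) in PFC and from 3.49 to 4.1 (median 3.79) in VMB. In VMB both factors lay under the floor on every array. The differences were -4.87 ± 0.10 and -4.29 ± 0.05, with limma adjusted p of 1.16e-31 and 3.96e-41. Mef2c, an activity-regulated factor of cortical neurons, differed by -3.96, and its other 4 probesets by -5.09 to -3.57. The 3 genes of the list that were not called were Neurod1, Rorb and Cux1, with differences of -1.02, 0.00 and 0.74. Without the 12 VMB arrays with Gabra6 above 4.5, Neurod1 differed by -2.03 and was called higher in PFC (limma adjusted p = 5.39e-10).

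Cortical interneuron genes were split, 7 of 15 higher in PFC and 2 higher in VMB, with a median of -1.15. The 2 exceptions were the calcium-binding proteins Calb2, given above, and Pvalb, parvalbumin, which ranged from 10.40 to 10.92 (median 10.67) in VMB and from 8.17 to 9.08 (median 8.70) in PFC. Pvalb marks fast-spiking cortical interneurons but was 4.01-fold higher in VMB (difference 2.00 ± 0.06, limma adjusted p = 3.30e-18). Pvalb and Calb2 are also expressed by midbrain neurons, so they do not mark the cortex in this pair of tissues. Calb2 is also on the thalamus list, and Pvalb on the cerebellar neuron list described below. The source of their signal in VMB was not tested. Markers of striatal projection neurons, which neither region should hold in number, showed 1 call of 9, Drd2. Ppp1r1b, the dopamine-regulated phosphatase inhibitor DARPP-32, had medians of 6.39 in VMB and 6.79 in PFC.

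The calcium-calmodulin and postsynaptic signalling genes gave the most calls on the cortical side, from a long list. The share called was larger for the cortical excitatory neuron genes, at 12 of 15. Of 35 tested, 18 were higher in PFC and 1 higher in VMB, with a median difference of -1.25. Camk2a, the alpha subunit of calcium/calmodulin-dependent kinase II, ranged from 7.53 to 9.66 (median 8.79) in PFC and from 3.60 to 4.84 (median 3.88) in VMB. Itpka, an inositol trisphosphate kinase of dendritic spines, ranged from 9.15 to 9.68 (median 9.36) in PFC and from 3.85 to 5.28 (median 4.48) in VMB. Nrgn, neurogranin, which holds calmodulin in spines, ranged from 11.19 to 11.93 (median 11.38) in PFC and from 6.61 to 8.28 (median 7.43) in VMB. All 3 were without overlap, and Nrgn alone of them was well above the floor in VMB. Their differences were -4.76 ± 0.13, -4.87 ± 0.10 and -3.91 ± 0.11. Pde1a, a calmodulin-activated phosphodiesterase, differed by -4.45, and Homer1 and Hpca, a scaffold and a calcium sensor, by -2.70 and -2.0. The single call in VMB was Prkcd, which is also on the thalamus list. Camk2a and Nrgn are also on the cortical excitatory list and were counted there too.

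Other large differences on the cortical side fell outside these lists. Rin1, a Ras effector of forebrain neurons, ranged from 7.06 to 7.69 (median 7.30) in PFC and from 2.89 to 3.64 (median 3.11) in VMB. Kalrn, the spine protein kalirin, had medians of 11.10 and 7.10, but its other 2 probesets differed by only -1.04 and -0.12. Crym, a thyroid hormone-binding protein, had a PFC median of 8.60 and a VMB median of 4.16 that hid a range from 3.27 to 6.37 between VMB arrays. The differences of these genes were -4.16, -4.05 and -4.04.

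Of 21 immediate early genes tested, 8 were higher in PFC and none in VMB, with a median difference of -0.87. Egr1, a zinc-finger factor induced by activity, ranged from 9.89 to 10.79 (median 10.16) in PFC and from 7.76 to 8.40 (median 8.02) in VMB. Junb had medians of 6.59 and 4.38, and the orphan nuclear receptor Nr4a1 8.51 and 6.50. The 3 genes differed by -2.13, -2.22 and -2.03 and did not overlap. Nptx2, an activity-induced synaptic pentraxin, differed by -2.47, and Bdnf, the neurotrophin, by -1.35. The group did not move as a block. Fos had medians of 6.73 in VMB and 6.51 in PFC, and Jun 7.38 and 7.36, with overlapping ranges.

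Neurotransmitter receptors were counted by class. Of 15 glutamate receptor genes, 4 were higher in PFC, namely Gria3, Gria2, Grin2a and Grin2b, with differences of -2.02, -1.75, -1.48 and -1.30. As deposited, Grin2a and Grin2b differed by -1.23 and -1.07 and were no longer called. Grin2b also lost its call with median centring (-1.23, limma adjusted p = 0.0202) and without the 12 VMB arrays with Gabra6 above 4.5 (-1.21, adjusted p = 0.167). Of 13 GABA and glycine receptor genes, Gabra6 and Glra1 were higher in VMB and Gabra2 higher in PFC. Gabra6 overlapped between the regions, with a difference of 2.78 that fell to 0.63 and was not called without the 12 VMB arrays where it was above 4.5, and its second probeset, at 1.34, was not called. Glra1, the glycine receptor subunit of the brainstem and spinal cord, had medians of 5.25 and 3.55 and a difference of 1.69. The Gabra2 difference of -1.16 sat close to the minimum of 1, and the call was lost in the values as deposited, with array weights, without the 4 arrays that stood apart and without the 12 VMB arrays with Gabra6 above 4.5. Of 34 receptors for monoamines, acetylcholine, opioids and cannabinoids, Htr2c, Chrna6 and Drd2 were higher in VMB and Chrm1 higher in PFC. Htr2c, a serotonin receptor, ranged from 6.21 to 7.53 (median 6.70) in VMB and from 3.83 to 4.55 (median 4.23) in PFC. The cannabinoid receptor Cnr1 and the mu opioid receptor Oprm1 differed by -0.81 and -0.45 and were not called.

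**Figure D3:**
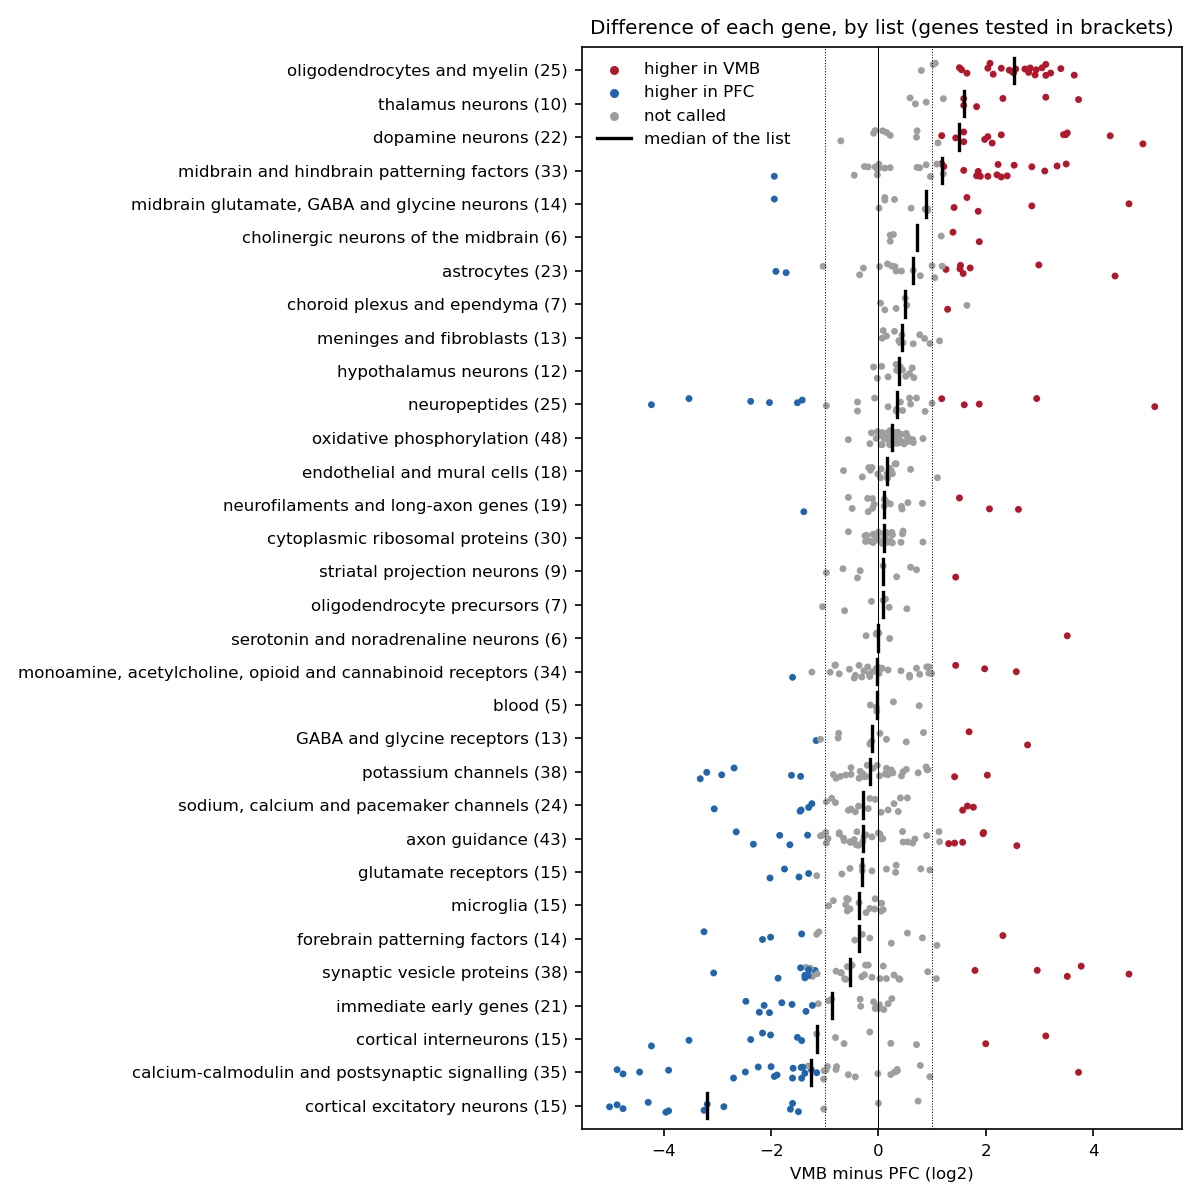
Difference between VMB and PFC (log2) for each gene of 32 lists, with the number of genes tested in brackets and the lists ordered by their median (black bar). Red and blue points were called higher in VMB and PFC, and the dotted lines mark a difference of 1. The lists run from oligodendrocytes and myelin, with a median of 2.52, to cortical excitatory neurons, with -3.19.

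Oligodendrocyte and myelin genes were the most uniform group on the VMB side. Of 25 tested, 22 were higher in VMB and none in PFC, with a median difference of 2.52. The mean over the list ranged from 9.45 to 9.73 in VMB and from 6.84 to 7.79 in PFC, so the spread between arrays was wider in the cortex. Some genes of the list lay near the top of the scale in VMB, such as Mbp and Cnp with means of 12.97 and 12.51. Whether this narrowed the spread in VMB was not tested. Mog, a glycoprotein of the outer myelin surface, ranged from 8.46 to 9.15 (median 8.93) in VMB and from 4.55 to 6.19 (median 5.15) in PFC. Mobp, a basic protein of compact myelin, ranged from 11.85 to 12.11 (median 12.02) in VMB and from 7.93 to 9.87 (median 8.54) in PFC. The differences were 3.65 ± 0.10 (12.6-fold, limma adjusted p = 2.49e-25) and 3.40 ± 0.12 (10.6-fold, limma adjusted p = 1.18e-21). Mag and Ugt8a, an adhesion protein and a lipid enzyme of myelin, were higher by 3.21 and 3.12.

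Genes that stood among the 12 largest in VMB without being on the list included Klk6, Anln, Ppp1r14a and Serpinb1a. Klk6, a serine protease, ranged from 7.51 to 8.97 (median 8.41) in VMB and from 3.75 to 4.20 (median 3.88) in PFC. Its difference was 4.57 ± 0.07. Anln, anillin, a scaffold of septin filaments that is found in myelin, was 3.85 higher. None of the 7 oligodendrocyte precursor genes was called, with a median of 0.09. Pdgfra, the growth factor receptor that defines precursors, had medians of 8.04 in VMB and 7.93 in PFC.

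Mbp, myelin basic protein, was the single gene with probesets called in opposite directions. Of its 8 probesets, 4 were called higher in VMB, with differences of 1.92 to 3.12, and 1 was called higher in PFC, at -1.34. The brightest probeset of Mbp, with mean levels of 12.97 and 11.91, differed by 1.06 ± 0.08 and was not called. The 2 probesets with negative differences were the dimmest of the 8, with mean levels of 6.36 to 8.09. Among 489 genes with several probesets and at least 1 call, 120 had every probeset called, and 64 had a probeset of the opposite sign.

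Astrocyte genes did not move together. Of 23 tested, 7 were higher in VMB and 2 higher in PFC, with a median of 0.65. Agt, angiotensinogen, which is made by astrocytes in the brain, ranged from 9.54 to 10.42 (median 9.72) in VMB and from 5.12 to 5.79 (median 5.32) in PFC. Gfap, the astrocyte intermediate filament, ranged from 8.44 to 9.89 (median 9.07) in VMB and from 6.86 to 7.92 (median 7.34) in PFC. The differences were 4.41 ± 0.05 and 1.71 ± 0.10, 21.3-fold and 3.28-fold. Chrdl1, a secreted BMP antagonist, and Dio2, which activates thyroid hormone, differed by -1.91 and -1.72 and were called higher in PFC. In all, 18 of the 23 had a positive difference. Aqp4, the water channel of astrocyte endfeet, was called at 1.53. Atp1b2, a sodium pump subunit, Fgfr3, a growth factor receptor, and the gap junction genes Gjb6 and Gja1 differed by 1.05, 1.0, 0.78 and 0.65 and were not called. Smaller differences were seen for Aldoc and Aldh1l1, at 0.43 and 0.25. The glutamate transporters Slc1a3 and Slc1a2 had differences of -1.03 and -0.35, and neither was called.

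The remaining non-neuronal groups gave almost no calls. Microglia (15 genes), endothelial and mural cells (18), meninges and fibroblasts (13) and blood (5) had none in either direction, with medians of -0.36, 0.16, 0.44 and -0.03. Among microglial genes, 3 of 15 had a positive difference, and Csf1r, the receptor these cells need to survive, had medians of 9.69 in VMB and 10.05 in PFC. Of 7 choroid plexus and ependyma genes, Foxj1, a factor of ciliated cells, was higher in VMB by 1.29. The 30 ribosomal protein genes and 48 oxidative phosphorylation genes had no call, and their medians were 0.10 and 0.26. Of the oxidative phosphorylation genes 43 had a positive difference, none above 0.83.

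Synaptic vesicle genes were called on both sides. Of 38 synaptic vesicle genes, 5 were higher in VMB and 8 higher in PFC. Vamp1, a vesicle SNARE of fast-firing and long-axon neurons, ranged from 10.98 to 11.52 (median 11.32) in VMB and from 7.95 to 8.58 (median 8.36) in PFC. Syt2, a fast calcium sensor of release in the brainstem, ranged from 7.92 to 8.69 (median 8.42) in VMB and from 4.22 to 4.95 (median 4.63) in PFC. Both were clear of the PFC arrays by more than 2 units, with differences of 2.96 ± 0.05 and 3.78 ± 0.06. Their relatives leaned to the cortex. Vamp2, the common vesicle SNARE, had medians of 9.56 and 10.69, and Syt1, the main calcium sensor of the forebrain, 8.80 and 10.35, and neither passed the limma test (differences of -1.14 and -1.27). Stx1a, a plasma membrane SNARE, was 8.41-fold higher in PFC.

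The members of 5 such pairs were compared within each of 18 mice by the difference of their regional differences. The pairs were picked with earlier results of these arrays known, and Syt2 and Camk2a are among the 12 largest differences of their side, so the values are a description with no test. Vamp1 exceeded Vamp2 in its VMB preference by 4.11 ± 0.32 (SD), and Syt2 exceeded Syt1 by 5.06 ± 0.79. Sncg exceeded Sncb, beta-synuclein, by 3.64 ± 0.44, Camk2d exceeded Camk2a by 5.01 ± 0.55, and Cplx1 exceeded Cplx2, both complexins, by 1.81 ± 0.39. Every pair had the same sign in all 18 mice. The pairs differed in form. Vamp1 and Syt2 were higher in VMB, whereas for Camk2d and Camk2a the contrast came from the alpha subunit, since Camk2d had medians of 6.88 in VMB and 6.85 in PFC. Sncb was level, with medians of 9.43 and 9.59.

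**Figure D4:**
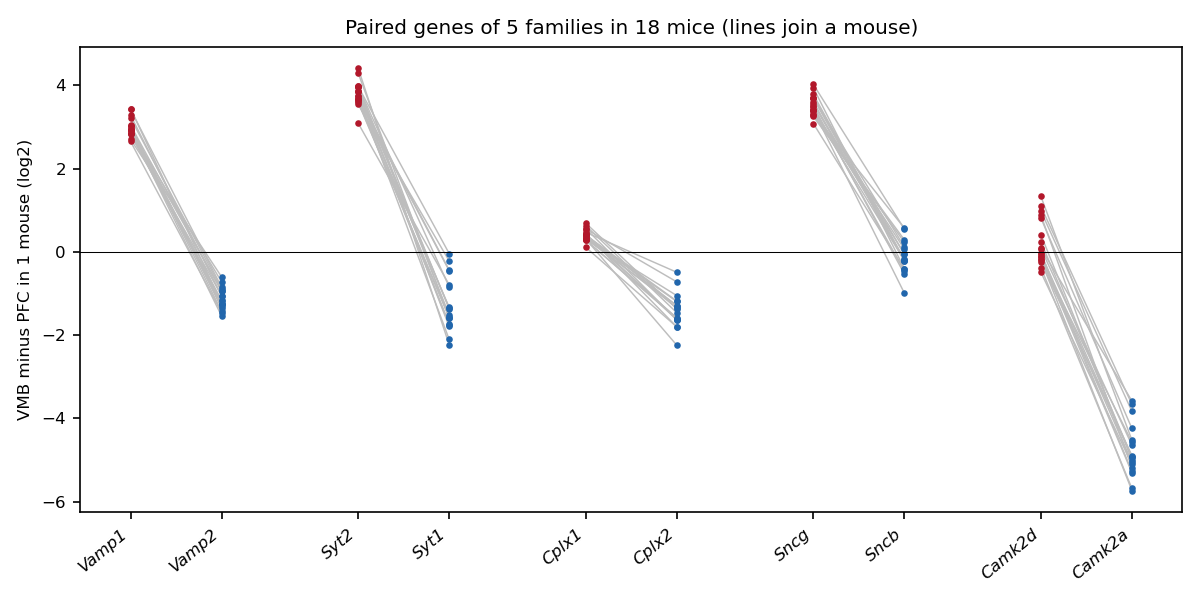
Difference between VMB and PFC (log2) in each of 18 mice for the 2 members of 5 gene pairs, with lines joining the values of 1 mouse. Every line falls from left to right, and the mean drop ranges from 1.81 for the complexins to 5.06 for the synaptotagmins.

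Ion channel genes were also called in both directions. Of 38 potassium channel genes, 2 were higher in VMB, a share near the background of 3.49%, and 6 higher in PFC. Kcnj10, the inward rectifier Kir4.1 of glia, had medians of 9.55 and 7.51, while Kcnq5, a channel of the M-current, had 3.77 and 7.13. The A-type channel partner Kcnip2 differed by -3.20, although its second probeset was level at 0.01. Of 24 sodium, calcium and pacemaker channel genes, 3 were higher in VMB and 5 higher in PFC. The PFC count was 3 as deposited and 4 without the 4 arrays that stood apart. It was also 4 without the 12 VMB arrays with Gabra6 above 4.5. The VMB count stayed at 3 in each. Scn1a, the sodium channel Nav1.1, was 1.77 higher in VMB, and Scn2a, Nav1.2, was lower there, at -1.46. Cacng3, an AMPA receptor auxiliary subunit, differed by -3.06 with SE 0.04.

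Neurofilament genes of large axons stood on the VMB side. Nefh, the heavy subunit, ranged from 9.78 to 10.39 (median 10.04) in VMB and from 7.13 to 7.82 (median 7.51) in PFC, and Nefm, the medium subunit, had medians of 11.05 and 9.0. The differences were 2.61 and 2.07, while Nefl, the light subunit, differed by 0.82 without overlap and was not called. In all, 3 of 19 neurofilament and long-axon genes were higher in VMB, and 1, the kinesin Kif5c, was higher in PFC. The Kif5c call, at a limma adjusted p of 0.00837, was lost in the values as deposited (adjusted p = 0.027), without the 4 arrays that stood apart (adjusted p = 0.0117) and without the 12 VMB arrays with Gabra6 above 4.5 (adjusted p = 0.0821). Among 43 axon guidance genes, 6 were higher in VMB and 5 higher in PFC. Ntng1, netrin-G1, a surface protein of thalamic axons, differed by 2.58, and Efnb2, an ephrin, by -2.65.

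The VMB arrays were not alike in every gene. Gabra6, a GABA receptor subunit of cerebellar granule cells, had the largest SD of any gene among them. It ranged from 3.22 to 8.65 (median 6.36) in VMB and from 2.77 to 3.46 (median 3.08) in PFC, where no array reached 4.5. In VMB it was at or under 4.30 on 7 arrays and at or above 5.73 on 12. Pcp2, a Purkinje cell protein, ranged from 4.53 to 9.52 in VMB and from 4.53 to 4.89 in PFC, and Car8, also of Purkinje cells, from 5.65 to 9.22 and from 6.40 to 7.47. The level of 4.5 did not separate arrays with Pcp2 from arrays without it, since Pcp2 was above every PFC array on all 12 and on 6 of the other 7, up to 7.53 on the array of mouse 3. Among the 12 arrays above 4.5, Pcp2 rose with Gabra6 (r = 0.98, rho = 0.958, permutation p = 1e-05 for both, adjusted 6e-05, and r = 0.965 without the 2 arrays farthest from the median). On the other 7 arrays r was 0.462 and rho 0.179 (exact permutation p = 0.293 and 0.713, adjusted 0.876 and 0.884). This relation was looked for after the spread had been seen, so its p-values do not measure how often chance would give such a pair.

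A list of 16 cerebellar neuron genes, also drawn up afterwards, had 7 members higher in VMB and none higher in PFC, and its mean ranged from 5.74 to 7.30 in VMB and from 5.28 to 5.41 in PFC. Of its genes, Gabra6, Pvalb, En2, Neurod1, Barhl1, Zic1 and Zic2 are on other lists too. With the 12 arrays left out, 3 were higher in VMB and 1, Neurod1, higher in PFC. Gabra6 and Pcp2 then differed by 0.63 and 0.98, En2 by 1.20 and Ppp1r17, also of Purkinje cells, by 1.16. None of them was called. These losses follow largely from the choice of arrays, which were left out by their Gabra6 level. Over all VMB arrays, Pcp2, Ppp1r17 and En2 had r of 0.943, 0.963 and 0.828 with Gabra6. Cbln1, a granule cell secreted protein that midbrain neurons also make, still differed by 2.38 (limma adjusted p = 4.44e-13). Over all probesets 518 were then higher in VMB, 512 of them among the original 589, and 635 higher in PFC, 615 of them among the original 688. The vesicle genes higher in PFC numbered 4 in place of 8, with 7 VMB arrays left for the test. The part of these transcripts in the other VMB differences was otherwise not tested.

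Within the arrays on each side of 4.5, Gabra6 had no relation to the region markers that passed correction. With Slc6a3, r was -0.0348 on 12 arrays and -0.258 on 7, rho was -0.0629 and -0.179, and the adjusted permutation p (exact for the 7 arrays) was 0.876 or more for each. With Slc17a6, r was 0.11 and -0.285 and rho 0.049 and -0.357, with adjusted p of 0.876 or more. Over all 19 VMB arrays, r was -0.287 and rho -0.277 with Slc6a3, and 0.0311 and 0.0825 with Slc17a6. The adjusted permutation p of these was 0.289 or more. The split narrows the range of Gabra6 and leaves few arrays, so only a strong relation could have passed, and no conclusion is drawn.

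**Figure D5:**
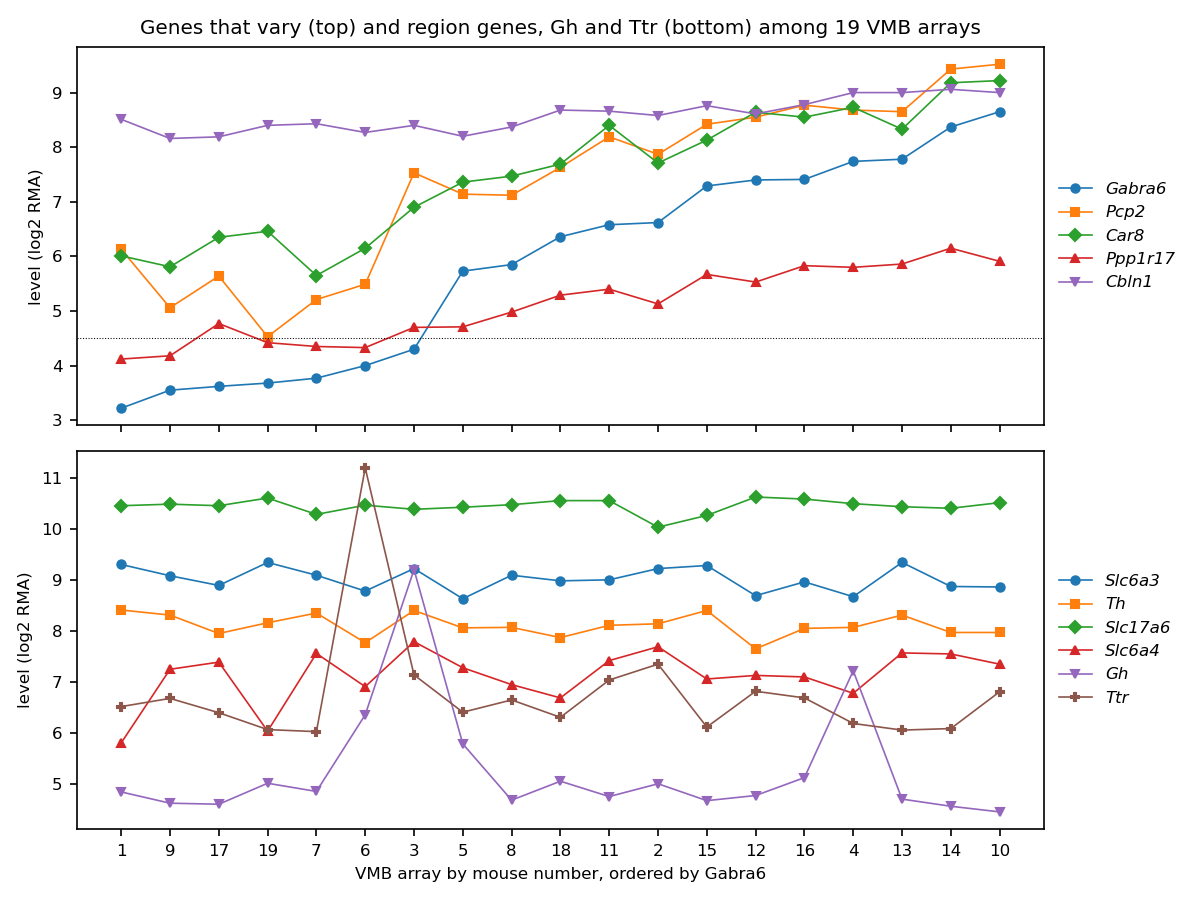
Level (log2) of 11 genes on the 19 VMB arrays, ordered from left to right by Gabra6 and labelled by mouse number, with the dotted line at 4.5. Gabra6, Pcp2, Car8 and Ppp1r17 climb from left to right while Slc6a3, Th and Slc17a6 stay level, and Ttr on the array of mouse 6 and Gh on those of mice 3 and 4 stand out.

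Single arrays stood apart in other transcripts. Ttr, transthyretin, the main product of the choroid plexus, was 11.19 on the VMB array of mouse 6 and 6.03 to 7.35 on the other 18, against 4.93 to 5.26 in PFC. It was not called (difference 1.65 ± 0.25, limma adjusted p = 0.0826), but differed by 1.39 and was called without the 4 arrays that stood apart (adjusted p = 0.000691). Gh, the pituitary growth hormone, was 9.20 and 7.22 on the VMB arrays of mice 3 and 4 and 7.44 on the PFC array of mouse 19. On the VMB arrays of mice 6 and 5 it was 6.36 and 5.79, and the medians over all 19 arrays were 4.85 in VMB and 4.49 in PFC. None of 6 pituitary hormone genes was called. Among the PFC arrays, that of mouse 3 was low in Pttg1, a securin, at 6.86 against a PFC median of 10.50, and in Gsn, gelsolin, at 3.48 against 6.72. Leaving out the VMB arrays of mice 3, 4 and 6 and the PFC array of mouse 3 gave 605 probesets higher in VMB and 683 higher in PFC, with 585 and 668 of them among the original calls.

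Among the 19 VMB arrays, 7 relations between dopamine genes and other genes were examined, to see whether dissections rich in one were rich in the other. Slc6a3 rose with Th (r = 0.745, permutation p = 0.00024, rho = 0.786, permutation p = 0.0001, adjusted 0.0012 and 0.0005), and r was 0.783 without the 2 arrays farthest from the median of Slc6a3. With Ddc, r was 0.531 and rho 0.514 (permutation p = 0.0208 and 0.0259, adjusted 0.0521 and 0.0863), and r fell to 0.401 without 2 arrays. With Mbp, r was -0.539 and rho -0.397 (permutation p = 0.0158 and 0.092, adjusted 0.0521 and 0.184). The Mbp probeset used had a mean of 12.97 and an SD of only 0.09 among the VMB arrays, so this relation rests on small differences. With Slc17a6, r was -0.337 (adjusted permutation p = 0.252). The mean of the dopamine list had no relation that passed correction with the mean of the thalamus list (r = -0.323, rho = -0.484), of the hypothalamus list (r = 0.0163, rho = 0.0719) or of the oligodendrocyte list (r = 0.377, rho = 0.377). Their adjusted permutation p was 0.0933 or more. The adjustment covered 10 relations, 3 of them the pooled relations of Gabra6.

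The third region, NAc, was set beside the others after quantile normalization of all 57 arrays, as a description. For 271 of the 396 genes higher in VMB, the NAc mean was nearer to PFC, and for 125 nearer to VMB. Slc6a3 and Slc17a6 followed the first pattern, with NAc means of 4.36 and 5.67. Cartpt was near its VMB mean, at 9.05 against 9.85 in VMB and 4.67 in PFC. Mog lay between, at 7.67 against 9.11 and 5.42. Of the 392 genes higher in PFC, 248 had a NAc mean nearer to PFC, and in 89 it exceeded PFC. Crym was among these, at 10.48 against 8.80 in PFC and 4.75 in VMB. Camk2a at 5.46 and Fezf2 at 5.47 were nearer to VMB.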

How the data were processed

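The authors deposited RMA signals on the log2 scale for 57 Affymetrix arrays, 22626 probesets each. Their notes list GCOS and RMA as the software used, and detection calls were not used here. The array medians as deposited were 5.79 to 5.86 in VMB, 5.66 to 5.70 in PFC and 6.26 to 6.32 in NAc. The 38 arrays were therefore quantile normalized together. The methods do not state whether RMA was run on all arrays together or on each region apart. The medians above form a separate, narrow range in each region, with no overlap between regions. If RMA was run apart, region and run coincide in every VMB minus PFC difference. Offsets of single probesets between regions could then remain after quantile normalization, and this was not tested. Quantile normalization assumes that both regions share 1 distribution of signals. No control probesets of the array maker were present.

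Probesets reaching 4.5 as deposited on at least 1 of 57 arrays were tested (19815; 2811 removed), after the filter of the methods. Differences were fitted with limma 3.58.1 in R 4.3.3, tested against a minimum of 1 (treat) with the mouse as a random block, and adjusted by Benjamini-Hochberg over all probesets. Arrays with the same replicate number in their titles were taken as 1 mouse. The methods state 1 array per region from each animal, but no label names the animal. Deviations of the paired arrays from their region means correlated at -0.235 to 0.243 (median 0.0451), and the consensus correlation was 0.0143. A gene was read from 1 probeset, the one with the highest mean among those with a single symbol. By the platform annotation 20380 probesets had 1 symbol, 691 several and 1555 none. Near-identical relatives can share probes, which leaves their split uncertain.

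Named genes were the region markers, the 12 with the largest difference in each direction, up to 4 called genes of each list with its defining members, the pair genes, the 5 genes of largest SD in each region, and genes with opposite probesets. Other list members were added as examples after their values were seen. Members and lists were chosen with earlier results of these data known. On simulated data with 200 changed probesets, 0% were called at a difference of 0.5, 62% at 1.25, 98% at 1.5 and 100% at 2, with 0 unchanged probesets called. The test asks for more than 1, so the absence of calls at 0.5 or 0 was all but fixed beforehand. It does not measure false calls. The simulated noise was independent between probesets, unlike variation shared by the real arrays. The number of arrays limits the precision. Promoter windows were from RefSeq, for genes with 1 window. Alternatives covered normalization, filter, block, minimum difference, array weights, probeset choice and the arrays left out.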

Additional observations from a re-analysis of the deposited data

How the results depend on the processing

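The counts of probesets, 589 higher in VMB and 688 higher in PFC, moved by less than 1.5 times under most alternatives. Centring each array on its median gave 584 and 738, normalizing all 57 arrays 587 and 695, no filter 586 and 685, a mean of at least 6 in a region 479 and 576, no replicate block 587 and 686, array weights 619 and 723, and leaving out PFC replicate 20 586 and 687. With the replicate block as a fixed term over the 18 mice with both arrays, the counts were 582 and 672, and the pairing changed no call of a named gene except Cplx2 and Ttr, which were then called, nor of another gene described except Foxa2, which was not. The values as deposited gave 790 and 563. The minimum difference mattered most: with none, 7550 probesets were higher in VMB and 7057 higher in PFC, and with a minimum of 2, 131 and 134. Adjusting over 1 probeset per gene gave 397 and 392 genes. Of 113 named genes, 109 kept their side of the threshold as deposited, 110 with median centring, 110 with array weights, 111 with the fixed block, 108 without the 12 VMB arrays and 110 without the 4 arrays that stood apart. No called named gene changed sign in any of these fits. Vamp2 was called with median centring, Syt1 with array weights and Cplx2 with both. Genes near a difference of 1 were recovered in part, and signals under 4.5 are compressed at the low end of the scale, which limits differences of genes low in 1 region. The alternatives that left out the 12 and the 4 arrays were chosen after seeing the data.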
